A study of Mus musculus with 27 samples.

Results

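This account follows 43 genes of DNA replication and S phase through fibrotic mouse liver, liver organoids and a seaweed extract. The genes were a fixed list of symbols, and each was matched to the row with that symbol in 3 expression tables. All 43 were found in each table, among 25859 genes listed for liver tissue and 27178 listed for each of the organoid tables, and all 43 passed the filter on low values in all 3 tables. By role the list holds 10 genes that mark and license origins (Orc1, Orc6, Cdc6, Cdt1, Mcm2 to Mcm7) and 6 that activate the helicase or guard the fork (Mcm10, Cdc45, Gins1, Gins2, Gins3, Clspn). A further 11 make and join DNA (Pola1, Pola2, Prim1, Pold1, Pole, Pcna, Rfc3, Rfc4, Rfc5, Fen1, Lig1) and 5 supply nucleotides (Rrm1, Rrm2, Tyms, Tk1, Dut). The last are 5 regulators of S phase entry (Ccne1, Ccne2, E2f1, E2f2, E2f8) and 6 genes of chromatin copying, histone mRNA and repair (Uhrf1, Chaf1a, Chaf1b, Slbp, Brca1, Neil3).

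The study sequenced messenger RNA of 27 libraries, 3 in each of 9 groups. The liver table holds healthy mice, mice made fibrotic with the hepatocyte toxin carbon tetrachloride (CCl4) and CCl4 mice treated with Sargassum japonica, a brown seaweed. The second table holds liver organoids, which are small epithelial cultures grown from tissue: from healthy animals that received mineral oil as vehicle, from CCl4 mice, and from CCl4 mice with the extract added to the culture for 24 h. The last table holds organoids of healthy mice that were untreated, exposed for 24 h to TGF-β1 (a cytokine, transforming growth factor beta 1, that drives fibrosis), or given TGF-β1 for 24 h and the extract for the 24 h after it. All organoids grew in Matrigel domes in expansion medium and then spent 4 to 5 days in differentiation medium. The labels give no strain, sex or age of the mice, no dose of any agent and no regime for the extract in mice, name no vehicle for the healthy liver group, and do not say when organoids given TGF-β1 alone were harvested. Nor do they tie each replicate to an animal or culture of its own, so the p-values below reflect variation among libraries, part or all of which may be technical.

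A cell that leaves the resting state must first license origins of replication. The origin recognition complex, Cdc6 and Cdt1 load the ring of Mcm2 to Mcm7 onto DNA in G1, and at the start of S phase Cdc45 and the GINS proteins join the ring and make it the moving helicase. Cyclin E with its kinase and the activating E2F factors drive this entry, and E2F sites lie in the promoters of many of the genes on the list, while E2f8 is a repressor of the same targets. Hepatocytes of an adult liver rarely divide, and they and other liver cells enter the cycle after injury.

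Promoter stretches are shown for 4 members that rose with CCl4 in liver and hold an E2F word (Mcm5, Mcm6, Cdc6, Uhrf1), and for the members that went their own way (Mcm10 and Brca1, chosen after their values were seen). The sequences are RefSeq's for GRCm38.p6 (mm10), read 5′ to 3′ along the gene. Capitals mark E2F words, which were searched on both strands as TTTCCCGC, TTTCGCGC, TTTGCCGC and TTTGGCGC, and which can overlap each other. The Mcm5 stretch lies at chr8:75109319-75109467 on the plus strand, the Mcm6 stretch at chr1:128359706-128359895 on the minus strand and the Cdc6 stretch at chr11:98907982-98908150 on the plus strand. The Uhrf1 stretch, before the downstream of its 2 start sites in the table, lies at chr17:56304123-56304312 on the plus strand. The Mcm10 stretch lies at chr2:5012792-5012981 and the Brca1 stretch at chr11:101551956-101552145, both on the minus strand. No stretch includes annotated exon bases, but the Cdc6 and Uhrf1 stretches lie inside their genes, between an upstream start site and a downstream one.
Mcm5: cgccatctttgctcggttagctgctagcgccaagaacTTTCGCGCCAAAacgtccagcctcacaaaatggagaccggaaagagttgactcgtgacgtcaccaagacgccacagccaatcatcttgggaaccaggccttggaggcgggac
Mcm6: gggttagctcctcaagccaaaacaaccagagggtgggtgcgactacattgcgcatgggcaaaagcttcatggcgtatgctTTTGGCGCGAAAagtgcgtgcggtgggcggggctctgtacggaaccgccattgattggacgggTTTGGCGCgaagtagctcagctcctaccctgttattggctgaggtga
Cdc6: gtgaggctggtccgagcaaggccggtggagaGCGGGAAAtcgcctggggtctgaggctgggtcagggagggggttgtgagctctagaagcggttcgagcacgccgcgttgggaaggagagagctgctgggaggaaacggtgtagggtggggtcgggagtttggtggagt
Uhrf1: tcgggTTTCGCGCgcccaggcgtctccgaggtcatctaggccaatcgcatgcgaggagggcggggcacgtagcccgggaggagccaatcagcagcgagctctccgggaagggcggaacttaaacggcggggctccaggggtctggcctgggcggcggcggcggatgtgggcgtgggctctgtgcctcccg
Mcm10: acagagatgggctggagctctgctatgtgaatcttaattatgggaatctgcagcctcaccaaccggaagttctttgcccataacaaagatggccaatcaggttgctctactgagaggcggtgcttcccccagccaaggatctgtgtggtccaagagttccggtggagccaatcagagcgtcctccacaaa
Brca1: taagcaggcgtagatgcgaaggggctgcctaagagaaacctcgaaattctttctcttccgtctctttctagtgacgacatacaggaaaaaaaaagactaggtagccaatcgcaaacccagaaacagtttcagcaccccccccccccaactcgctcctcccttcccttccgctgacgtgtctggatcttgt
In the Mcm5 stretch 2 E2F words on opposite strands share bases and form 1 run of capitals, and Mcm6 has such a run and a separate word nearer its start. No E2F word was found in the windows of Mcm10 and Brca1, which says only that these letters are not there. Over windows of 300 bases (250 before the start and 50 from it), 38 of the 43 members had an entry, and no sequence was at hand for Ccne2, Gins1, Gins2, Mcm4 and Pole. An E2F word was present in 15 of the 38 members (39.5%) and in 704 of 27025 genes (2.6%). The box CCAAT was present in 23 of the 38 (60.5%) against 41.1% of all genes, and TTTGAA in 6 of the 38 (15.8%) against 20.2%. The members with an E2F word were Cdc6, Cdt1, Clspn, E2f2, Gins3, Lig1, Mcm3, Mcm5, Mcm6, Mcm7, Orc1, Pola1, Pold1, Rfc3 and Uhrf1. A match describes the letters and is not a measured binding site.

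Levels are given as CPM, which is reads per megaread (M) of the authors' effective library size, and changes as log2 fold changes with a standard error from limma, fitted over all genes of a table. A gene is said to rise or fall when its Benjamini-Hochberg adjusted p was under 0.05. The libraries held 44.5 to 64.8 M reads each. Because each table was normalized on its own, a level in one table is comparable with a level in another only roughly. Of the 43 members, 11 overlap another protein-coding gene in mm10, and their reads may be shared with it, since no source used here gives the strand setting of the counting: Orc1, Mcm7, Cdc45, Gins2, Rfc4, Fen1, Lig1, Tk1, Ccne2, E2f1 and Chaf1a.

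**Figure D1:**
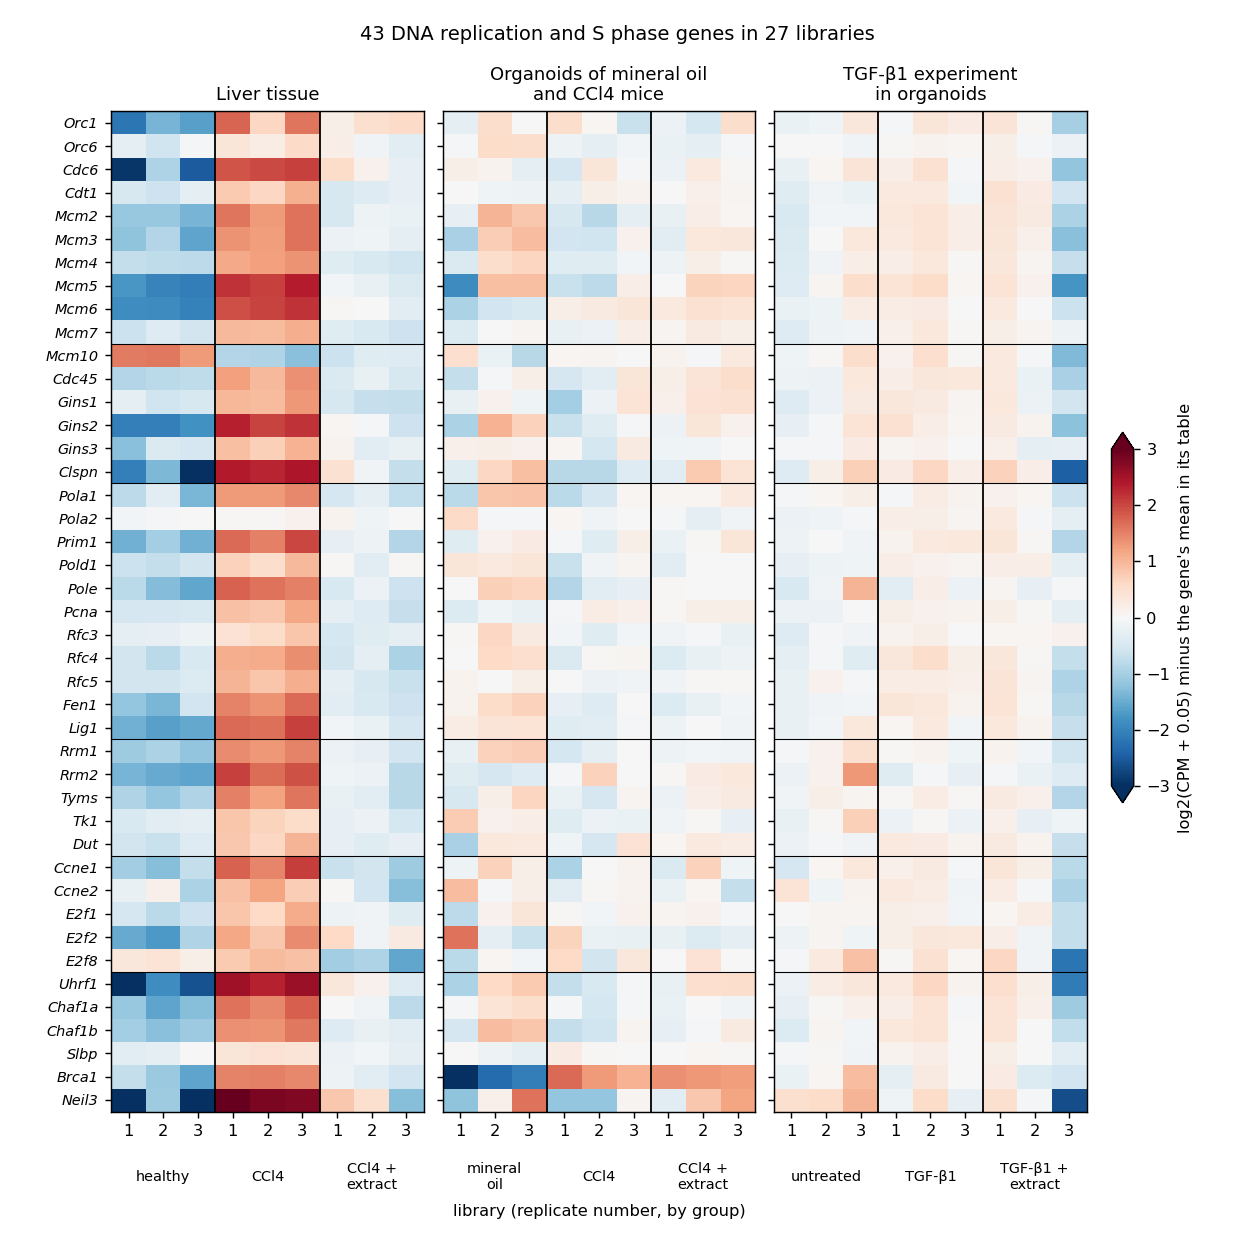
Heat map of the 43 genes (rows, in the order of roles given in the text, with lines between roles) in the 27 libraries (columns, replicate numbers 1 to 3 within each group). Colour is log2(CPM + 0.05) minus the gene's mean over the 9 libraries of its own table, cut at -3 and 3. Nearly every row is red in CCl4 liver and blue in healthy liver, Mcm10 is the reverse, and the organoid tables show pale rows except Brca1 and single libraries.

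In liver nearly the whole list rose with CCl4. Of the 43 members 41 rose and 1, Mcm10, fell, against 28.7% of all 15037 genes tested that rose and 25.5% that fell. The median change of the members was 2.43 on the log2 scale, and that of all genes was 0.00. The median of the members' mean levels was 2.98 CPM in healthy liver and 13.1 CPM in CCl4 liver. Levels in healthy and CCl4 liver did not overlap for 42 of the 43 members with CCl4 liver higher, against 30.7% of all genes. In tissue, more cells in S phase and more of these RNAs per cell cannot be told apart.

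Among the licensing genes all 10 rose, with a median of 2.68. Mcm5, a subunit of the helicase ring, was at 2.42, 2.02 and 1.92 CPM in healthy liver, 37.1, 34.2 and 42.5 CPM in CCl4 liver and 7.86, 7.09 and 6.16 CPM in extract-treated CCl4 liver. Its levels did not overlap between any of the 3 groups, with healthy liver the lowest and CCl4 liver the highest. The change with CCl4 was 4.14 ± 0.14 (SE; adjusted p = 4e-09). Mcm2, another subunit, was at 2.67, 2.67 and 2.25 CPM in healthy liver, 18.2, 14.5 and 18.5 CPM in CCl4 liver and 4.27, 5.36 and 5.14 CPM in extract-treated CCl4 liver. The 3 groups lay apart here too, and the change with CCl4 was 2.73 ± 0.15 (adjusted p = 6.9e-08). Cdc6, which loads the ring together with Cdt1, was at 0.0701, 0.433 and 0.111 CPM in healthy liver, 3.31, 3.57 and 3.72 CPM in CCl4 liver and 1.28, 0.945 and 0.717 CPM in extract-treated CCl4 liver. Healthy liver was the lowest group without overlap, and its 3 libraries differed several times among themselves (change with CCl4, 4.19 ± 0.46, adjusted p = 1.5e-05). At the other end of this role Orc6, a subunit of the origin recognition complex, changed by 0.69 ± 0.19 and Cdt1 by 1.29 ± 0.16. Orc1, the largest subunit of that complex, changed by 3.22 ± 0.40, from 2 to 4 reads per healthy library.

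Of the 6 genes of helicase activation and the fork 5 rose, and Mcm10 fell. Clspn, the mediator of the replication checkpoint, was at 0.333, 0.577 and 0.111 CPM in healthy liver, 8.22, 7.78 and 8.48 CPM in CCl4 liver and 2.13, 1.44 and 0.93 CPM in extract-treated CCl4 liver. Every CCl4 library stood far above every healthy library, a change of 4.67 ± 0.44 (adjusted p = 4.7e-06). Gins2, a subunit of the GINS complex, changed by 4.18 ± 0.22, its partners Gins1 and Gins3 by 1.56 ± 0.17 and 1.63 ± 0.26, and Cdc45 by 2.02 ± 0.17.

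Mcm10, which is known to help start the assembled helicase, was the exception. It was at 94.9, 95.7 and 77.6 CPM in healthy liver, 17.4, 17 and 13.5 CPM in CCl4 liver and 20.6, 24.8 and 24.6 CPM in extract-treated CCl4 liver. Healthy liver was the highest group and CCl4 liver the lowest, with no overlap between the 3 groups. The change with CCl4 was -2.48 ± 0.13 (adjusted p = 4.7e-08), the reverse of the other members. Per length, Mcm10 was at 12.3, 12.4 and 10.1 reads per kb of exon per M in healthy liver, overlapping Pcna at 11.3, 11.3 and 11.5. This likeness may depend on the length used, which merges the annotated exons of all transcripts of a gene. Mcm10 spans chr2:4990724-5012791 in mm10 and overlaps no other protein-coding gene. Its neighbours, chosen after its value was seen, did not share 1 pattern: Optn, 7.7 kb away, changed by -0.78 ± 0.11 (adjusted p = 0.00014) and Ccdc3, 124.5 kb away, by 2.62 ± 0.23 (adjusted p = 3.1e-06), while Ucma, 5.0 kb away, had a mean of at most 0.011 CPM in any liver group.

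Among the genes that make and join DNA 10 of 11 rose, with a median of 1.80. Pcna, the sliding clamp that tethers the polymerases, was at 27, 27.1 and 27.6 CPM in healthy liver, 70.5, 67.1 and 85.3 CPM in CCl4 liver and 31, 29.1 and 23.6 CPM in extract-treated CCl4 liver. Its healthy libraries were nearly equal and all lay below the CCl4 libraries, a change of 1.44 ± 0.12 (adjusted p = 2e-06). The largest changes here were those of Lig1, the ligase that joins Okazaki fragments (3.35 ± 0.15), Prim1, the catalytic primase subunit (3.04 ± 0.21), and Pole, the catalytic subunit of the leading strand polymerase (2.86 ± 0.19). Pola2, the regulatory subunit of polymerase alpha, did not pass the test. It was at 7.8, 8.08 and 8.2 CPM in healthy liver, 8.5, 8.48 and 9.05 CPM in CCl4 liver and 8.88, 7.63 and 8.24 CPM in extract-treated CCl4 liver. All 9 liver libraries lay close together, with CCl4 liver a little above healthy liver, and the change was 0.11 ± 0.11 (95% interval -0.13 to 0.36, adjusted p = 0.42). Pola1, the catalytic subunit of the same enzyme, changed by 2.16 ± 0.22.

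All 5 nucleotide genes rose. Rrm2, the small subunit of ribonucleotide reductase, which is made in S phase, was at 10.2, 9.45 and 8.96 CPM in healthy liver, 112, 86.2 and 101 CPM in CCl4 liver and 24.7, 23.7 and 15.2 CPM in extract-treated CCl4 liver. No library of 1 group reached the range of another, with a change of 3.38 ± 0.17 (adjusted p = 3.6e-08). Tk1, the thymidine kinase of the salvage route, was at 19.4, 21.2 and 21.8 CPM in healthy liver, 47.8, 42.8 and 39.3 CPM in CCl4 liver and 22.6, 23.6 and 18.6 CPM in extract-treated CCl4 liver. CCl4 liver stood above both other groups, which overlapped each other, and the change with CCl4 was 1.05 ± 0.12 (adjusted p = 1.6e-05). Rrm1, the large subunit of ribonucleotide reductase, changed by 2.47 ± 0.12, Tyms, which makes thymidylate, by 2.43 ± 0.17, and Dut, which removes dUTP, by 1.35 ± 0.13.

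All 5 regulators rose as well. Ccne1, a cyclin E, was at 0.807, 0.673 and 1.03 CPM in healthy liver, 6, 4.84 and 7.36 CPM in CCl4 liver and 1.06, 1.16 and 0.794 CPM in extract-treated CCl4 liver. The CCl4 libraries lay above all others, a change of 2.80 ± 0.24 (adjusted p = 2.2e-06). Ccne2, the second cyclin E, was at 0.859, 1.13 and 0.498 CPM in healthy liver, 1.88, 2.36 and 1.71 CPM in CCl4 liver and 1.04, 0.665 and 0.388 CPM in extract-treated CCl4 liver. Its libraries were low and scattered, and the change was smaller (1.28 ± 0.37, adjusted p = 0.011). E2f1, an activating factor, was at 3.68, 2.96 and 3.43 CPM in healthy liver, 9.42, 8.04 and 11.4 CPM in CCl4 liver and 4.76, 4.87 and 4.09 CPM in extract-treated CCl4 liver. CCl4 liver was the highest group and healthy liver the lowest, with a change of 1.50 ± 0.16 (adjusted p = 1.4e-05), and E2f2, the other activator, changed by 2.52 ± 0.25. E2f8, the repressor, was at 7.17, 7.43 and 6.36 CPM in healthy liver, 9.74, 10.9 and 10.3 CPM in CCl4 liver and 2.7, 2.94 and 1.88 CPM in extract-treated CCl4 liver. It was well expressed in healthy liver already, and the change with CCl4 was the smallest among members that rose (0.56 ± 0.17, adjusted p = 0.015).

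The 6 genes of chromatin and repair rose, and 2 of them had the largest changes on the list. Neil3, a DNA glycosylase of replicating cells, was at 0.0351, 0.529 and 0.0369 CPM in healthy liver, 10.3, 8.58 and 8.29 CPM in CCl4 liver and 2.06, 1.63 and 0.446 CPM in extract-treated CCl4 liver. Healthy liver held 2 to 22 reads of it per library, so its fold change rests on very few reads there, and the change was 5.97 ± 0.72 (adjusted p = 3.3e-05). Uhrf1, which recruits the maintenance DNA methyltransferase to newly copied DNA, was at 0.386, 0.962 and 0.553 CPM in healthy liver, 21.3, 18.2 and 22 CPM in CCl4 liver and 4.63, 3.99 and 2.75 CPM in extract-treated CCl4 liver. Every CCl4 library was far above every library of the other groups, a change of 5.02 ± 0.28 (adjusted p = 8.6e-08). Slbp, which binds histone mRNA, was at 13.7, 14.3 and 17.5 CPM in healthy liver, 22.6, 23.6 and 22.9 CPM in CCl4 liver and 15.4, 16.6 and 14.2 CPM in extract-treated CCl4 liver. It was abundant in all groups and changed little (0.61 ± 0.11, adjusted p = 0.00086). Chaf1a and Chaf1b, subunits of the chromatin assembly factor, changed by 2.97 ± 0.22 and 2.56 ± 0.16, and Brca1, of homologous recombination, by 2.62 ± 0.21.

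The extract went with lower levels of most members in CCl4 liver. Compared with CCl4 liver, 39 of the 43 fell and 1 (Mcm10) rose, against 9.76% of the genes tested that fell and 9.33% that rose. This comparison and that of CCl4 with healthy liver share the CCl4 libraries, so the 2 are not independent. The median change of the members was -1.74, against -0.00 over all genes. By role 8 of 10 licensing genes, 5 of 6 helicase and fork genes, 10 of 11 genes that make and join DNA, all 5 nucleotide genes, all 5 regulators and all 6 chromatin and repair genes fell.

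The largest falls were those of Neil3 (-2.93 ± 0.72, adjusted p = 0.016), Ccne1 (-2.55 ± 0.24, adjusted p = 6e-05) and Clspn (-2.49 ± 0.44, adjusted p = 0.0026). The helicase subunits Mcm5 and Mcm2 changed by -2.43 ± 0.14 and -1.78 ± 0.15, and Cdc6 by -1.85 ± 0.46. Uhrf1 changed by -2.45 ± 0.28, Rrm2 by -2.26 ± 0.17, Pcna by -1.41 ± 0.12 and Tk1 by -1.01 ± 0.12. Among the regulators E2f8, which had risen least with CCl4, fell by 2.05 ± 0.17 on the log2 scale (adjusted p = 3.5e-05), Ccne2 by 1.55 ± 0.37 and E2f1 by 1.06 ± 0.16. Slbp changed by -0.58 ± 0.11. Mcm10 again went the other way, by 0.55 ± 0.13 (adjusted p = 0.013), which did not pass with library size alone as the scale (0.32, adjusted p = 0.088) or without replicate 2 or replicate 3 of extract-treated CCl4 liver (0.51 each time, adjusted p = 0.056 and 0.059). Orc1 (-0.93 ± 0.40, adjusted p = 0.13), Orc6 (-0.47 ± 0.19, adjusted p = 0.1) and Pola2 (-0.07 ± 0.11, adjusted p = 0.7) did not pass the test.

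**Figure D2:**
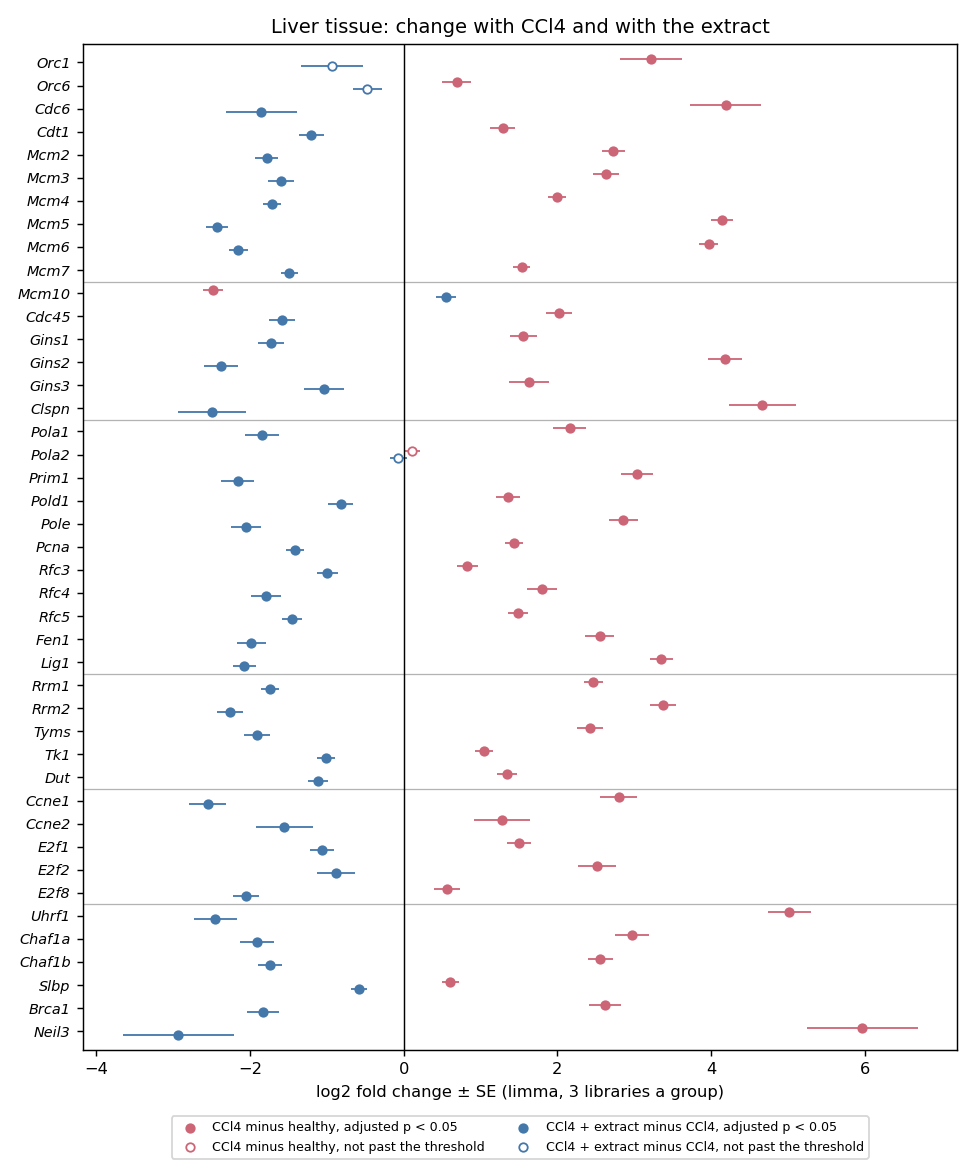
Log2 fold change (x axis, with standard error from limma, 3 libraries a group) of the 43 genes in liver for CCl4 against healthy liver (red) and for extract-treated against untreated CCl4 liver (blue). Filled points passed an adjusted p of 0.05 and open points did not, and lines separate the roles. Red points lie to the right and blue points to the left of 0 except for Mcm10, and Pola2 lies near 0 in both. Both comparisons share the CCl4 libraries.

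Part of the list was higher in extract-treated CCl4 liver than in healthy liver. Of the 43 members 22 were higher and 2 lower, against 21.1% and 13.6% of the genes tested, and the median difference was 0.54 against -0.01 over all genes. Licensing genes were higher in 6 of 10 cases, helicase and fork genes in 2 of 6, genes that make and join DNA in 5 of 11, nucleotide genes in 3 of 5, regulators in 1 of 5 (E2f2) and chromatin and repair genes in 5 of 6. The largest differences were those of Neil3 (3.04 ± 0.72, adjusted p = 0.0069), Uhrf1 (2.57 ± 0.28, adjusted p = 4.1e-05) and Cdc6 (2.34 ± 0.46, adjusted p = 0.0021). Mcm5 was 1.71 ± 0.14, Mcm2 0.95 ± 0.15 and Rrm2 1.12 ± 0.17 above healthy liver on the log2 scale.

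Other members did not differ from healthy liver by the test. The difference was 0.03 ± 0.12 for Pcna (95% interval -0.24 to 0.29), 0.05 ± 0.12 for Tk1, 0.26 ± 0.24 for Ccne1 (95% interval -0.27 to 0.78), 0.44 ± 0.16 for E2f1 and 0.03 ± 0.11 for Slbp, and Ccne2 was at -0.27 ± 0.37. The 2 members below healthy liver were Mcm10 (-1.93 ± 0.13, adjusted p = 1.2e-06) and E2f8 (-1.49 ± 0.17, adjusted p = 5e-05). For E2f8 every extract-treated library lay below every healthy library, although every CCl4 library lay above them.

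**Figure D3:**
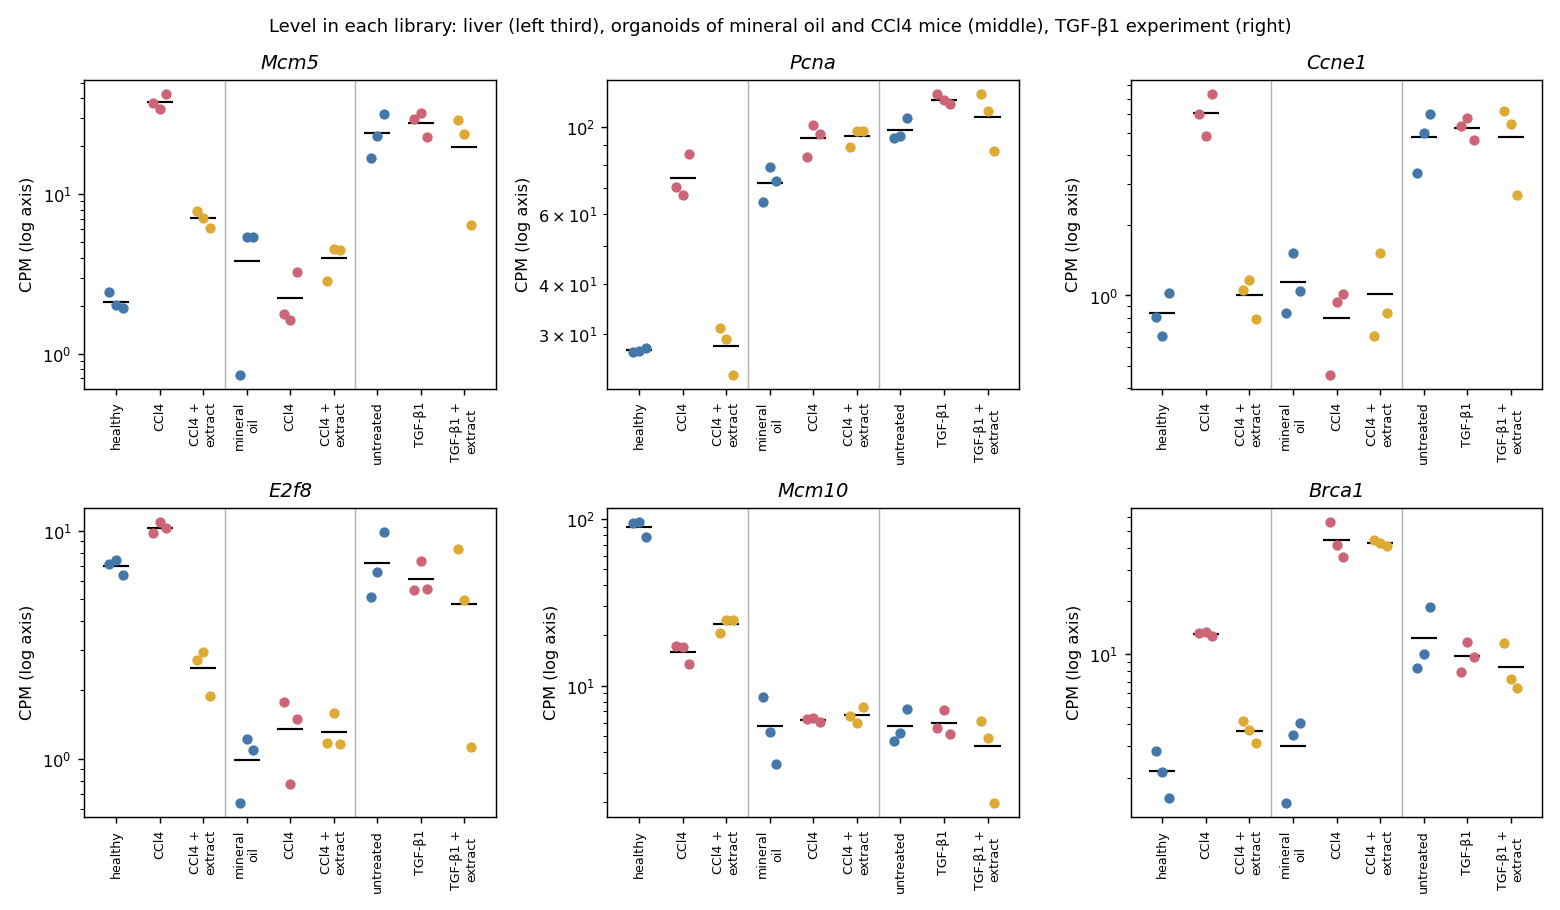
CPM (log axis) of 6 members in each of the 27 libraries (points), with the mean of each group as a bar and grey lines between the separately normalized tables. Mcm5, Pcna and Ccne1 are high in CCl4 liver and lower with the extract, E2f8 ends below healthy liver, Mcm10 runs the other way, and Brca1 is high in both groups of CCl4 organoids.

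Other genes of the cell cycle also changed in liver. These lists were drawn up from textbook roles, with earlier results of these data known. Of 45 further replication genes 28 rose and 3 fell with CCl4 (median 0.88), against 28.7% and 25.5% of all genes, and 32 fell and 0 rose with the extract (median -0.83), against 9.76% and 9.33%. Among those with the smallest p under CCl4 were Dbf4, the activator of the kinase that fires origins (3.33 ± 0.14), and Hells, a chromatin remodeller (3.25 ± 0.20), and under the extract Dbf4 (-1.75 ± 0.14), Hells (-2.10 ± 0.20) and Mcm8 (-1.90 ± 0.19). In extract-treated CCl4 liver 14 of them were higher and 4 lower than in healthy liver, against 21.1% and 13.6% of all genes, among them Dbf4 (1.58 ± 0.14) and Ticrr (3.12 ± 0.47). Of 23 genes of G1 control 12 rose and 2 fell with CCl4, against the 28.7% and 25.5% of all genes, led by Rbl1, a pocket protein (3.04 ± 0.15), Cdkn2c, an inhibitor of the cyclin D kinases (2.20 ± 0.15), and Ccnd1, cyclin D1 (2.84 ± 0.20). With the extract 7 of these 23 fell and 0 rose, against 9.76% and 9.33%, led by Rbl1 (-1.76 ± 0.15), Cdkn2d (-1.39 ± 0.16) and Ccnd1 (-1.34 ± 0.20). Against healthy liver 8 of the 23 were higher and 1 lower, against 21.1% and 13.6%, led by Cdkn2c (1.58 ± 0.15), Rbl1 (1.29 ± 0.15) and Ccnd1 (1.50 ± 0.20). All 20 mitosis genes rose with CCl4, with a median of 6.22, led by the checkpoint kinase Bub1b (5.27 ± 0.18), Cdk1 (6.03 ± 0.22) and Cdc20 (7.61 ± 0.28). All 20 fell with the extract, with a median of -2.54, led by Bub1b (-2.37 ± 0.18), Aurka (-2.35 ± 0.19) and the motor Kif11 (-2.47 ± 0.21). In extract-treated CCl4 liver all 20 were above healthy liver (median 3.63), led by Cdc20 (5.01 ± 0.28), Cdk1 (3.60 ± 0.22) and Bub1b (2.90 ± 0.18).

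Cell type markers also differed between liver groups, and their part in the results was not tested. The sums of stellate cell and cholangiocyte markers were highest in CCl4 liver and lower with the extract, without overlap. Macrophage and lymphocyte sums overlapped between CCl4 liver with and without the extract, and endothelial sums overlapped between all groups. The 10 macrophage markers summed to 497 to 660.1 CPM in healthy liver, 1077 to 1302 CPM in CCl4 liver and 1048 to 1169.9 CPM with the extract, and 9 of the 10 rose with CCl4. The 10 stellate cell markers summed to 235 to 285, 1121 to 1607 and 686 to 833 CPM, and 9 of the 10 rose. The 7 cholangiocyte markers summed to 43.3 to 63, 189.6 to 418 and 129 to 149 CPM, and the 8 lymphocyte markers to 14.3 to 22.4, 47.2 to 53.4 and 42.7 to 50 CPM. Of the 12 hepatocyte markers 7 fell with CCl4, and their sum was 132236 to 148848 CPM in healthy liver, 106084 to 114793 CPM in CCl4 liver and 132348 to 150069 CPM with the extract. The 6 endothelial markers summed to 174 to 341, 269 to 300.2 and 290.5 to 319 CPM, and the 5 erythroid markers listed to 127 to 149, 59.4 to 73.6 and 83.2 to 191 CPM. No marker of these lists was at 0 in any liver group.

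The scale moved the counts over all genes more than those of the members. With library size alone as the scale the median of all genes lay at 0.38 for CCl4, at -0.23 for the extract and at 0.13 for the extract against healthy liver. On it 7261 genes rose and 1384 fell with CCl4, against 4314 and 3829 on the authors' scale, 640 rose and 3600 fell with the extract, and 3823 were higher and 840 lower in the last comparison. Of the members 42 rose and 1 fell with CCl4, 0 rose and 40 fell with the extract, and 25 were higher and 2 lower than in healthy liver. Pola2 rose with CCl4 on that scale (0.49, adjusted p = 0.0054) and Orc6 fell with the extract (-0.70, adjusted p = 0.018), and Mcm10 no longer rose with the extract.

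Organoids of CCl4 mice did not show the rise seen in CCl4 liver, a difference tested directly below. Compared with organoids of mineral oil mice, 4 members rose (Brca1, Mcm6, Rrm2, Pcna) and 6 fell (Mcm2, Pole, Fen1, Tk1, Lig1, Pold1), against 20.4% of 14836 genes tested that rose and 19.8% that fell. Called in either direction were 10 of the 43 members, against 40.2% of all genes, so the share was not above the background. The median change of the members was -0.39, against 0.03 over all genes. The median of the members' mean levels was 5.76 CPM in organoids of mineral oil mice, 4.84 CPM in CCl4 organoids and 5.59 CPM in extract-treated CCl4 organoids.

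The largest change was that of Brca1. It was at 1.43, 3.47 and 4.09 CPM in organoids of mineral oil mice, 56.3, 41.9 and 35.6 CPM in CCl4 organoids and 44.6, 42.8 and 41.4 CPM in extract-treated CCl4 organoids. All CCl4 organoid libraries, with and without the extract, stood far above all libraries of mineral oil mice, and the change was 3.98 ± 0.36 (adjusted p = 0.00015). Brca1 spans chr11:101488761-101551955 in mm10 and overlaps no other protein-coding gene. Of its neighbours, chosen after its value was seen, Nbr1, 0.2 kb away, changed by 0.35 ± 0.08 (adjusted p = 0.01), Rnd2 by -0.55 ± 0.19 (adjusted p = 0.045) and Tmem106a, 30.3 kb away, by 2.21 ± 0.53 (adjusted p = 0.012), while Vat1 was at 0.01 ± 0.09 (adjusted p = 0.93).

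Mcm6, a subunit of the ring, was at 25.5, 32.6 and 35.5 CPM in organoids of mineral oil mice, 55.1, 59.4 and 63.1 CPM in CCl4 organoids and 60, 67.3 and 65.6 CPM in extract-treated CCl4 organoids. The CCl4 libraries were all above those of mineral oil mice (0.93 ± 0.13, adjusted p = 0.00091). Rrm2 was at 93.3, 84.7 and 91.9 CPM in organoids of mineral oil mice, 116, 192 and 119 CPM in CCl4 organoids and 123, 142 and 148 CPM in extract-treated CCl4 organoids. Replicate 2 of the CCl4 organoids stood above the rest, and no library of mineral oil mice reached the CCl4 groups (0.62 ± 0.18, adjusted p = 0.028). Pcna was at 64.6, 78.9 and 73 CPM in organoids of mineral oil mice, 84, 101 and 95.6 CPM in CCl4 organoids and 88.6, 97.2 and 97.5 CPM in extract-treated CCl4 organoids. The CCl4 groups again lay above the mineral oil group, by a small margin (0.37 ± 0.10, adjusted p = 0.019).

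Among the members that fell, Mcm2 was at 6.8, 16.4 and 14.2 CPM in organoids of mineral oil mice, 5.78, 4.54 and 6.54 CPM in CCl4 organoids and 6.96, 9.23 and 8.36 CPM in extract-treated CCl4 organoids. Replicates 2 and 3 of mineral oil mice were high and replicate 1 was close to the CCl4 organoids, a change of -1.06 ± 0.32 (adjusted p = 0.03). Pole was at 22.4, 37.2 and 35.4 CPM in organoids of mineral oil mice, 12.3, 18.1 and 19 CPM in CCl4 organoids and 23.2, 22.7 and 22.3 CPM in extract-treated CCl4 organoids. All CCl4 libraries lay below the mineral oil libraries, and the extract-treated ones lay near the lowest mineral oil library (-0.93 ± 0.22, adjusted p = 0.012). Fen1, the flap endonuclease of Okazaki fragment processing, was at 7.87, 10.6 and 11.7 CPM in organoids of mineral oil mice, 6.11, 5.54 and 7.22 CPM in CCl4 organoids and 5.46, 6.25 and 6.87 CPM in extract-treated CCl4 organoids. Both CCl4 groups lay below the mineral oil group (-0.66 ± 0.18, adjusted p = 0.022). Tk1 was at 16.1, 10.3 and 10.8 CPM in organoids of mineral oil mice, 7.32, 8.33 and 8.25 CPM in CCl4 organoids and 8.86, 9.66 and 7.99 CPM in extract-treated CCl4 organoids. Replicate 1 of mineral oil mice was the highest of the 9, and both CCl4 groups lay below all mineral oil libraries and overlapped each other (-0.61 ± 0.18, adjusted p = 0.029). Lig1 changed by -0.59 ± 0.12 and Pold1, the catalytic subunit of the lagging strand polymerase, by -0.57 ± 0.20.

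Other members of interest did not pass the test here. Mcm5 was at 0.737, 5.38 and 5.37 CPM in organoids of mineral oil mice, 1.78, 1.62 and 3.27 CPM in CCl4 organoids and 2.86, 4.53 and 4.46 CPM in extract-treated CCl4 organoids. Replicate 1 of mineral oil mice was the lowest of the 9 libraries, while its companions were the highest (-0.39 ± 0.72). Uhrf1 was at 1.69, 5.04 and 5.73 CPM in organoids of mineral oil mice, 1.99, 2.4 and 3.2 CPM in CCl4 organoids and 2.82, 4.73 and 4.81 CPM in extract-treated CCl4 organoids. Cdc6 was at 5.18, 4.99 and 3.81 CPM in organoids of mineral oil mice, 3.23, 5.96 and 4.52 CPM in CCl4 organoids and 4.09, 5.69 and 4.73 CPM in extract-treated CCl4 organoids. For Uhrf1 replicate 1 of mineral oil mice was again low, and for Cdc6 the 3 groups overlapped. Ccne1 was at 0.837, 1.52 and 1.05 CPM in organoids of mineral oil mice, 0.456, 0.937 and 1.01 CPM in CCl4 organoids and 0.669, 1.52 and 0.844 CPM in extract-treated CCl4 organoids. Ccne2 was at 2.43, 1.22 and 1.43 CPM in organoids of mineral oil mice, 0.995, 1.29 and 1.35 CPM in CCl4 organoids and 1.1, 1.32 and 0.746 CPM in extract-treated CCl4 organoids. Both cyclins were low, and their groups overlapped. E2f1 was at 4.68, 8.84 and 10.5 CPM in organoids of mineral oil mice, 8.35, 7.67 and 8.8 CPM in CCl4 organoids and 8.6, 8.88 and 7.93 CPM in extract-treated CCl4 organoids. E2f8 was at 0.638, 1.22 and 1.09 CPM in organoids of mineral oil mice, 1.78, 0.771 and 1.49 CPM in CCl4 organoids and 1.17, 1.59 and 1.16 CPM in extract-treated CCl4 organoids. Slbp was at 28.4, 25.6 and 22.9 CPM in organoids of mineral oil mice, 33.5, 29.1 and 28.6 CPM in CCl4 organoids and 28.6, 29.5 and 29.1 CPM in extract-treated CCl4 organoids. For E2f1 and E2f8 replicate 1 of mineral oil mice was the lowest library, and for Slbp the CCl4 libraries lay slightly above those of mineral oil mice (0.25 ± 0.10, adjusted p = 0.084).

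Replicate 1 of mineral oil mice stood apart from its companions. It was the lowest of the 9 libraries for 14 members and the highest for 6, and its mitosis genes lay at a median of -1.15 from their table means, against 0.49 and 0.69 in its companions. Without it 6 members rose and 20 fell with CCl4, against 31.7% and 29.0% of all genes. The 20 that fell included Mcm2 (-1.45 ± 0.18, adjusted p = 0.00018), Clspn (-1.46 ± 0.37, adjusted p = 0.0078) and Mcm5 (-1.33 ± 0.32, adjusted p = 0.0066), and the 6 that rose were the 4 named above, Slbp and Mcm10 (0.56 ± 0.20, adjusted p = 0.035). Leaving out replicate 1 or 2 of the CCl4 organoids, or replicate 2 or 3 of mineral oil mice, left 6, 5, 6 and 6 members called. The shares over all genes in those 4 fits are not reported here. The number called thus depends on single libraries in this table. This is not particular to the members, since without replicate 1 of mineral oil mice the shares over all genes rose too, from 20.4% and 19.8%.

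No member passed the test for the extract in organoids of CCl4 mice. By limma 0 of the 43 members and 0 of 14836 genes (0.00%) passed the test, and at an unadjusted p under 0.05 there were 271 genes (1.83%) and 1 member, Clspn (0.99 ± 0.42). It was at 0.538, 1.11 and 1.37 CPM in organoids of mineral oil mice, 0.373, 0.375 and 0.533 CPM in CCl4 organoids and 0.557, 1.25 and 0.962 CPM in extract-treated CCl4 organoids, and replicate 1 of the extract-treated group lay close to the CCl4 organoids without the extract. The median change of the members was 0.13, against -0.00 over all genes. Levels without overlap and higher with the extract were found for 3 members, against 6.21% of all genes, and 0 members lay lower without overlap, against 7.57%. The intervals were narrow for some members and wide for others: Pcna changed by 0.02 ± 0.10, Mcm6 by 0.12 ± 0.13, Rrm2 by -0.01 ± 0.18, Brca1 by -0.03 ± 0.36 and Mcm5 by 0.86 ± 0.72.

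Against mineral oil mice, extract-treated CCl4 organoids had 4 members higher and 2 lower, against 17.2% of all genes in each direction. Higher were Brca1 (3.95 ± 0.36, adjusted p = 0.00018), Mcm6 (1.05 ± 0.13, adjusted p = 0.0006), Rrm2 (0.61 ± 0.18, adjusted p = 0.034) and Pcna (0.39 ± 0.10, adjusted p = 0.018), and lower were Fen1 (-0.68 ± 0.18, adjusted p = 0.023) and Lig1 (-0.43 ± 0.12, adjusted p = 0.023). This comparison and the one before it share the mineral oil libraries. Without replicate 1 of mineral oil mice 6 members were higher and 14 lower, against 29.8% and 26.4% of all genes. Without any 1 of the other libraries of the comparison 2 or 3 members were called in all, and the shares over all genes there are not reported here.

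Among the pathway lists, 5 of the 45 further replication genes rose and 11 fell in CCl4 organoids, against 20.4% and 19.8% of all genes, among them Pole3, a small subunit of the leading strand polymerase (-1.40 ± 0.16), and Orc3, of the origin recognition complex (-0.73 ± 0.08). Of the 20 mitosis genes 0 rose and 1 fell (Cdca8, -0.79 ± 0.27, ahead of Birc5 at 0.55 ± 0.22 and Cenpa at -0.46 ± 0.40). Without replicate 1 of mineral oil mice 8 of the 20 fell, against 29.0% of all genes in that fit. Of the 23 genes of G1 control 7 rose and 5 fell, against the same background, led by Rbl2, a pocket protein (0.47 ± 0.06), Ccnd1 (-2.47 ± 0.34) and Cdkn2a, of the Ink4a/Arf locus (-1.75 ± 0.25). In extract-treated CCl4 organoids 3 further replication genes were higher and 10 lower than in mineral oil mice, against 17.2% of all genes each way, 0 mitosis genes were called and 5 genes of G1 control were higher and 5 lower, and none of the 3 lists had a gene called for the extract itself.

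In organoids 4, 6 and 6 of the 10 macrophage markers had a read in mineral oil, CCl4 and extract-treated CCl4 libraries. Of the 10 stellate cell markers 8, 6 and 6 had a read, and they summed to 5.28 to 6.52, 5.92 to 6.48 and 5.4 to 6.18 CPM. The macrophage markers Adgre1, Trem2 and C1qa and the stellate marker Dcn were at 0 in all 3 groups. The 7 cholangiocyte markers summed to 7307 to 8386 CPM in mineral oil mice, 5895 to 6330.3 CPM in CCl4 organoids and 5779.7 to 6309.7 CPM with the extract. Of the 12 hepatocyte markers 11, 10 and 9 had a read, and Asgr1 was at 0 in all 3 groups. The 12 hepatocyte markers summed to 1630.3 to 4067, 3865 to 7519 and 5588 to 5972 CPM and the 10 macrophage markers to 29.2 to 116, 11 to 19 and 16.2 to 16.9 CPM, and the part of these shifts in the results was not tested. The 6 endothelial markers summed to at most 1.97 CPM and the 8 lymphocyte markers to at most 1.04 CPM.

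The subunits of the Mcm2 to Mcm7 ring, which act in equal numbers as 1 complex, were set side by side per length, as reads per kb of exon per M. The length was that of the annotated exons of all transcripts of a gene, merged, and the order between subunits may depend on that choice. In CCl4 liver the order of the means was Mcm6, Mcm5, Mcm7, Mcm3, Mcm4 and Mcm2, with Mcm6 at 13 and Mcm2 at 2.45. In healthy liver it was Mcm7, Mcm4, Mcm3, Mcm6, Mcm5 and Mcm2, from 3.26 to 0.363. Mcm6 stood 1.41 to 1.67 times above Mcm5 in the healthy liver libraries and 1.3 to 1.5 times in the CCl4 liver libraries. In organoids of CCl4 mice the same ratio was 16.5 to 31.3 without the extract and 12.6 to 18 with it, and in organoids of mineral oil mice it ran from 5.19 to 29.6. Organoids of the TGF-β1 experiment had ratios of 1.85 to 2.6 untreated, 1.87 to 2.23 after TGF-β1 and 2.11 to 5.04 after TGF-β1 and the extract. By group mean Mcm5 was the lowest subunit and Mcm6 the highest in all 3 groups of the mineral oil and CCl4 table, and Mcm7 was the highest in all 3 groups of the TGF-β1 table. These orders are of group means, and many neighbours overlapped between libraries. In liver these were Mcm3 and Mcm6 in the healthy group, Mcm5 and Mcm7 as well as Mcm3 and Mcm4 with CCl4, and Mcm7 and Mcm6 as well as Mcm4 and Mcm5 with CCl4 and the extract. Mcm2 and Mcm5 overlapped in all 3 groups of the mineral oil and CCl4 table, Mcm3 and Mcm2 also with the extract and in mineral oil mice, and Mcm7 and Mcm4 as well as Mcm4 and Mcm3 in mineral oil mice. Mcm6 overlapped neither Mcm7 nor any other subunit in those 3 groups. In untreated organoids of the TGF-β1 table all neighbours overlapped except Mcm4 and Mcm3, and after TGF-β1 all except Mcm7 and Mcm6 and except Mcm4 and Mcm3. In organoids given TGF-β1 and the extract every pair of neighbours overlapped.

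**Figure D4:**
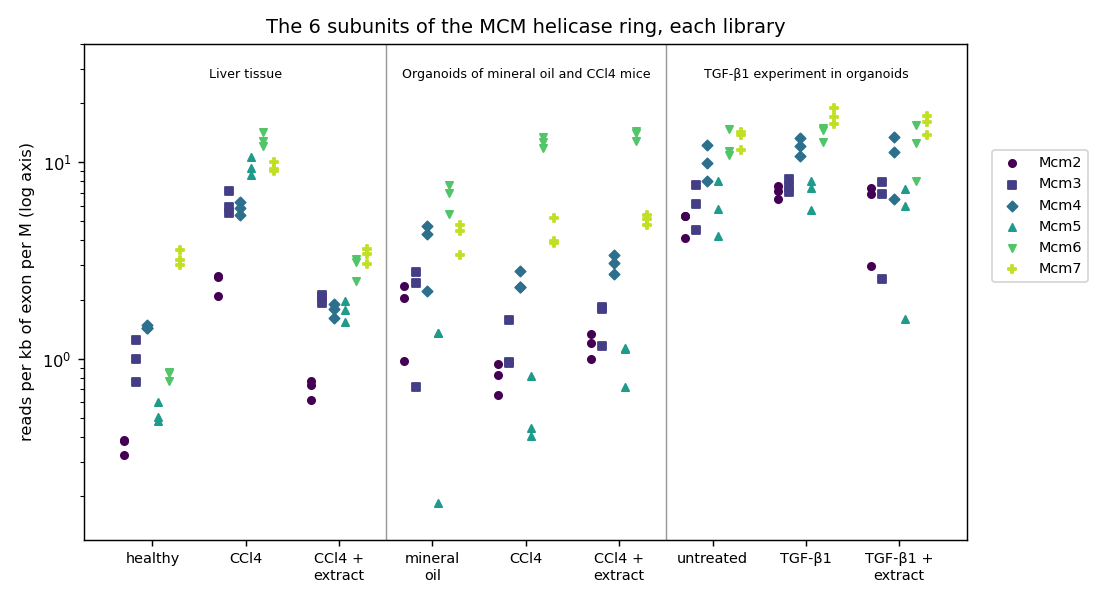
Reads per kb of exon per M (log axis) of the 6 ring subunits in each library, by group, with grey lines between the separately normalized tables. The subunits move up together in CCl4 liver, whereas in the organoids of CCl4 mice and of mineral oil mice Mcm6 lies far above Mcm5.

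TGF-β1 brought no member past the test in organoids. By limma 0 of 43 members passed, against 0.00% of 14125 genes higher and 3 genes lower (0.0212%). At an unadjusted p under 0.05 there were 1747 genes (12.4%) and 2 members (Mcm7 and Pold1). The median change of the members was 0.20, against 0.01 over all genes. Levels without overlap and higher after TGF-β1 were found for 14 of the 43 members, against 16.7% of all genes. The median of the members' mean levels was 17 CPM in untreated organoids, 17.1 CPM after TGF-β1 and 15.3 CPM after TGF-β1 and the extract.

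Among the licensing genes Mcm2 was at 28.8, 37.3 and 37.2 CPM in untreated organoids, 49.4, 52.6 and 45.1 CPM after TGF-β1 and 51.3, 47.7 and 20.6 CPM after TGF-β1 and the extract. The TGF-β1 libraries were all above the untreated ones, and replicate 3 of the extract group was far below all others (TGF-β1 against untreated, 0.52 ± 0.32, adjusted p = 0.55). Mcm5 was at 16.8, 23.1 and 31.9 CPM in untreated organoids, 29.4, 32 and 22.7 CPM after TGF-β1 and 29.1, 23.9 and 6.39 CPM after TGF-β1 and the extract. Here the untreated libraries spread into the range of TGF-β1, and replicate 3 of the extract group was again the lowest (0.26 ± 0.53). Cdc6 was at 5.62, 6.91 and 8.6 CPM in untreated organoids, 7.62, 9.16 and 6.42 CPM after TGF-β1 and 7.64, 7.26 and 2.88 CPM after TGF-β1 and the extract. It overlapped between all groups. Pcna was at 93.7, 94.5 and 105 CPM in untreated organoids, 121, 117 and 114 CPM after TGF-β1 and 121, 109.6 and 87 CPM after TGF-β1 and the extract. All TGF-β1 libraries were above the untreated ones by a small margin (0.26 ± 0.12, adjusted p = 0.42).

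Rrm2 was at 42.4, 52 and 118 CPM in untreated organoids, 37.2, 46.5 and 40.6 CPM after TGF-β1 and 46.4, 41.9 and 36.5 CPM after TGF-β1 and the extract. Tk1 was at 15.7, 18.6 and 30 CPM in untreated organoids, 16.3, 18.8 and 16.3 CPM after TGF-β1 and 20.3, 15.4 and 16.7 CPM after TGF-β1 and the extract. For both, replicate 3 of the untreated group stood above every other library. Ccne1 was at 3.35, 4.98 and 6.01 CPM in untreated organoids, 5.36, 5.77 and 4.65 CPM after TGF-β1 and 6.21, 5.44 and 2.69 CPM after TGF-β1 and the extract. Ccne2 was at 2.89, 1.99 and 2.34 CPM in untreated organoids, 2.68, 2.56 and 2.02 CPM after TGF-β1 and 2.53, 2.08 and 1.1 CPM after TGF-β1 and the extract. E2f1 was at 22.7, 23.8 and 23.7 CPM in untreated organoids, 25.1, 24.9 and 21 CPM after TGF-β1 and 23.5, 26.3 and 13.6 CPM after TGF-β1 and the extract. These overlapped between all groups, with replicate 3 of the extract group the lowest. E2f8 was at 5.12, 6.56 and 9.87 CPM in untreated organoids, 5.47, 7.35 and 5.55 CPM after TGF-β1 and 8.27, 4.97 and 1.12 CPM after TGF-β1 and the extract. Uhrf1 was at 21.2, 27.9 and 30.6 CPM in untreated organoids, 29.2, 37.2 and 25.6 CPM after TGF-β1 and 34.3, 27.3 and 5.54 CPM after TGF-β1 and the extract. Slbp was at 29.1, 31 and 28 CPM in untreated organoids, 32.9, 34.6 and 30.6 CPM after TGF-β1 and 34.1, 30.5 and 23.9 CPM after TGF-β1 and the extract. In E2f8 and Uhrf1 the same extract library was several times below its companions, and in Slbp the groups overlapped.

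Among the TGF-β1 experiment's libraries 2 stood apart, in opposite directions for the members and the mitosis genes. Replicate 3 of the extract group was the lowest of the 9 for 38 of the 43 members, at a median of -0.72 from the members' table means, and its mitosis genes lay at -1.60. Replicate 3 of the untreated group was the highest for 10 members, and its mitosis genes lay at 1.31. Across all genes, though, the deviations of these 2 libraries from their own group means ran together (r = 0.717). Without these 2 libraries 14 members rose with TGF-β1 and 0 fell, against 11.5% of genes that rose and 11.9% that fell. These were Mcm2 (0.58 ± 0.09, adjusted p = 0.00079), Mcm3 (0.52 ± 0.11), Rfc4 (0.51 ± 0.14), Mcm5 (0.49 ± 0.15), Mcm7, Cdc45, Mcm4, Fen1, Cdt1, Pold1, Mcm6, Dut, Pola2 and Pcna (0.31 ± 0.05, adjusted p = 0.00073). So 7 of the 10 licensing genes and 5 of the 11 genes that make and join DNA rose, and 0 of the 5 regulators and 0 of the 6 chromatin and repair genes. The untreated group then had 2 libraries. Leaving out any 1 of the 6 untreated and TGF-β1 libraries alone brought 0 members past the test. Libraries of the extract group were not left out singly for this comparison.

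The mitosis genes lay on the other side in the same comparison. With all libraries their median was -1.13, and 0 of the 20 passed the test by limma, while 12 had an unadjusted p under 0.05. Without the 2 libraries all 20 fell (median -0.94), led by Cdc20, the activator of the anaphase complex (-1.47 ± 0.16, adjusted p = 5.3e-05), Ube2c, its ubiquitin enzyme (-1.29 ± 0.15), and Ccnb2, cyclin B2 (-1.85 ± 0.21). Of the 45 further replication genes 17 then rose and 0 fell, against 11.5% and 11.9% of all genes, led by Dtymk, thymidylate kinase (0.37 ± 0.06), Pole3 (0.43 ± 0.07) and Orc2, of the origin recognition complex (0.31 ± 0.05). Of the 23 genes of G1 control 4 rose and 5 fell, against the same shares, led by Myc (0.29 ± 0.05), Rb1, the retinoblastoma protein (-0.29 ± 0.06), and Cdk4, a cyclin D kinase (0.24 ± 0.05).

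**Figure D5:**
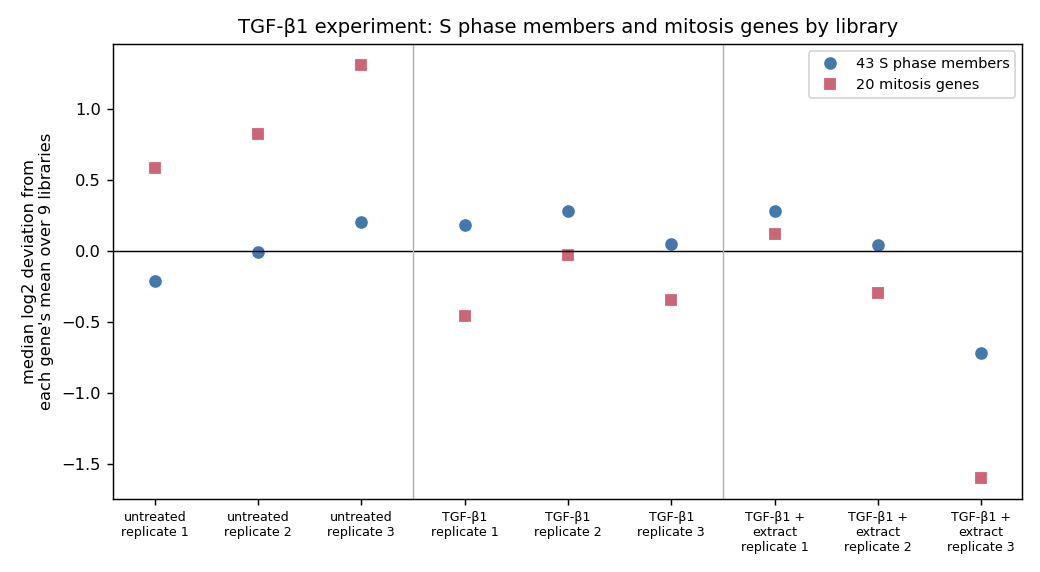
Median log2 deviation from each gene's mean over the 9 libraries of the TGF-β1 table (y axis), for the 43 members (circles) and the 20 mitosis genes (squares), in each library (x axis). The mitosis genes lie above the members in all 3 untreated libraries and below them in the TGF-β1 and extract libraries, and replicate 3 of the extract group is the lowest in both.

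The extract after TGF-β1 did not bring any member past the test in any setting tried. Compared with TGF-β1 alone, 0 of 43 members and 0 of 14125 genes (0.00%) were called by limma, and 272 genes (1.93%) but 0 members had an unadjusted p under 0.05. The median change was -0.32 with all libraries and -0.02 without the 2 libraries, so the lower median rests on replicate 3 of the extract group. Without them the change was 0.02 ± 0.09 for Mcm2, -0.02 ± 0.05 for Pcna, 0.10 ± 0.10 for Rrm2 and 0.01 ± 0.14 for Uhrf1. Against untreated organoids 0 members were called with all libraries, with 2 genes lower (0.0142%) and 1303 genes (9.22%) but 0 members at an unadjusted p under 0.05. Without the 2 libraries 10 members were higher and 0 lower, against 5.85% and 7.89% of all genes, led by Mcm2 (0.60 ± 0.10, adjusted p = 0.0021), Cdt1 (0.58 ± 0.14) and Mcm3 (0.49 ± 0.12), and 14 of the 20 mitosis genes were lower, led by Ccnb2 (-1.75), Ube2c (-1.18) and Cdc20 (-1.20).

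In the TGF-β1 table the macrophage markers Adgre1, Clec4f, Trem2, Ms4a7 and C1qa and the stellate marker Lrat were at 0 in all 3 groups. In each group 4 of the 10 macrophage markers had a read. The stellate marker Reln was also at 0 in all 3 groups. The 10 stellate cell markers summed to 3.22 to 12.8 CPM untreated, 2.83 to 3.15 CPM after TGF-β1 and 3.13 to 6.98 CPM after the extract. The 7 cholangiocyte markers summed to 4672 to 10503, 5175 to 5299 and 4844 to 6471 CPM, the 12 hepatocyte markers to 322 to 389.8, 240.3 to 261 and 241 to 277 CPM and the 10 macrophage markers to 30.8 to 109.7, 16.6 to 21 and 19.6 to 39.3 CPM. The part of these shifts in the results was not tested.

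The differences between these effects were tested directly, in a fit over both tables concerned. The change with CCl4 was more positive in liver than in organoids for 38 of the 43 members and more negative for 2, against 26.9% and 27.3% of 13116 genes, and the median difference was 2.66. It was largest for Neil3 (6.94 ± 1.19, adjusted p = 0.00018), Clspn (5.75 ± 0.67) and Uhrf1 (5.58 ± 0.58). The value of Neil3 rests on few reads, since it was the lowest member in CCl4 organoids, at a mean of 0.144 CPM. Mcm5 differed by 4.53 ± 0.76, Rrm2 by 2.75 ± 0.27, Ccne1 by 3.32 ± 0.49 and Pcna by 1.07 ± 0.16. The 2 members with a more negative change in liver were Mcm10 (-2.70 ± 0.33, adjusted p = 8.7e-06) and Brca1 (-1.36 ± 0.43, adjusted p = 0.015), and Brca1 did not pass with library size alone as the scale (-1.02, adjusted p = 0.076). E2f8 (0.15 ± 0.41), Pola2 (0.27 ± 0.20) and Slbp (0.36 ± 0.15, adjusted p = 0.053) did not differ by the test. Without replicate 1 of mineral oil mice the counts were again 38 and 2, against 31.0% and 31.6% of all genes.

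The change with the extract was more negative in CCl4 liver than in CCl4 organoids for 33 members and more positive for 0, against 4.67% and 2.41% of all genes, with a median difference of -1.96. It was largest for Neil3 (-4.28 ± 1.19, adjusted p = 0.043), Clspn (-3.48 ± 0.67) and Mcm5 (-3.28 ± 0.76), where Neil3 again rests on few reads in CCl4 organoids. Compared with the extract after TGF-β1 it was more negative in liver for 22 members and more positive for 0, against 3.61% and 2.21% of 12674 genes, with a median of -1.36. Here Ccne1 (-2.33 ± 0.42, adjusted p = 0.0072), Rrm2 (-2.26 ± 0.40) and Pole (-2.07 ± 0.41) led, and Uhrf1 (-1.64 ± 0.71, adjusted p = 0.19) and Mcm5 (-1.67 ± 0.57, adjusted p = 0.099) did not pass. Without replicate 3 of the extract group the number was 34, and without replicate 3 of both the untreated and the extract group it was also 34, against 6.61% of all genes, and without replicate 3 of CCl4 liver, of extract-treated CCl4 liver or of the TGF-β1 group it was 13 each time. Between the 2 organoid experiments the change with the extract differed for 0 members and 0 of 13538 genes (0.00%) by limma, with 2 members at an unadjusted p under 0.05. The extract reached mice and cultures by regimes that differ or are not given, so these differences set tissue and culture side by side and not equal doses.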

How the data were processed

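RNA-seq of 27 mouse libraries, 3 in each of 9 groups, was analysed from 3 gene tables; reads were mapped to mm10 per the submitters' processing notes, from a stranded mRNA kit per the labels' protocols, and the aligner, the counter and the strand setting are not stated in any source used here. The authors deposited log2 values. These rebuilt exactly as log2 CPM, computed on an effective library size after adding a prior count of 2 scaled to it (largest difference 5.0e-09), and the reads recovered from them were whole within 0.05. Libraries held 44.5 to 64.8 M reads, and every column of sample values was matched to a sample.

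Genes with the CPM of 10 reads of a median library in at least 3 libraries, and 15 reads over the table, were tested on the deposited log2 values with limma 3.58.1 in R 4.3.3 (group means over the 9 libraries of a table, trended variance, Benjamini-Hochberg adjustment over all genes tested: 15037, 14836 and 14125), with an adjusted p under 0.05 as the threshold and 95% intervals. Differences between effects used 1 limma fit over 2 tables. The procedure was tested on simulated reads that had the same spread setting for all genes and no library that stood apart. That test does not cover tables in which single libraries stood apart, as in the organoids. Alternatives were a prior count of 0.5, no filter, library size alone, voom weights, only the 2 groups compared, a replicate block and each library left out. Leaving replicate 3 of both the untreated and the TGF-β1 plus extract group out was planned, with earlier results of these data known. Single libraries left out of the differences between effects, and the neighbouring genes, were chosen after seeing the data.

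The members and the lists were chosen with earlier results of these data known. Named in full were 12 members fixed by role (Mcm2, Mcm5, Cdc6, Pcna, Rrm2, Tk1, Ccne1, Ccne2, E2f1, E2f8, Uhrf1, Slbp), the 3 largest called changes each way per comparison, members against the majority or not called where most were, and the 3 smallest p of each list of other replication, mitosis and G1 control genes, of which some are not reported here. Same-numbered libraries deviated together between untreated and TGF-β1 plus extract organoids (r = 0.531, 0.583 and 0.717 across genes), where the number comes from the sample titles. Differently numbered libraries 1 and 2 of these groups correlated alike (0.578 and 0.504), while each replicate 3 ran against the others' 1 and 2 (-0.652 to -0.575), so the values set replicate 3 apart and do not tell 1 from 2. The fit with the replicate block called 0 members there too.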

Additional observations from a re-analysis of the deposited data

Results flagged for a closer look

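Each result here was singled out because the same contrast differed between systems by a test of the difference itself (limma over 2 tables, adjusted p under 0.05).

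The CCl4 effect differed between liver and organoids for 40 members, 38 more positive in liver and 2 more negative, against 26.9% and 27.3% of all genes. Among them were Neil3 (6.94), Clspn (5.75), Uhrf1 (5.58), Mcm10 (-2.70) and Brca1 (-1.36), each a liver change minus an organoid change in log2 units. The extract effect differed between CCl4 liver and CCl4 organoids for 33 members, all more negative in liver, among them Neil3 (-4.28), Clspn (-3.48) and Mcm5 (-3.28). Of all genes 4.67% were more negative in liver and 2.41% more positive. The extract effect differed between CCl4 liver and organoids given TGF-β1 for 22 members, all more negative in liver, among them Ccne1 (-2.33), Rrm2 (-2.26) and Pole (-2.07). Here 3.61% of all genes were more negative in liver and 2.21% more positive. Tissue and organoids also differ in cell types, medium and exposure, which cannot be told apart here.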

How the results depend on the processing

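In liver the number of members called stayed between 42 and 42 with CCl4, 34 and 41 with the extract, and 20 and 24 for the extract against healthy liver. For each range every library of the 2 groups compared was left out in turn. The organoid counts moved more between fits, and where given the shares over all genes moved with them. CCl4 against mineral oil organoids gave 10 members with all libraries, 5 to 26 with a library left out and 4 (2 higher, 2 lower) with only the 2 groups compared. Extract-treated CCl4 organoids against mineral oil organoids gave 2 to 20. The upper ends, 26 and 20, came without replicate 1 of mineral oil mice. In those 2 fits 31.7% of all genes were higher and 29.0% lower, and 29.8% higher and 26.4% lower. Shares over all genes in the other fits with a single library left out, or with only the 2 groups compared, are not reported here. The extract effect in liver minus that after TGF-β1 gave 13 to 34 with a library left out, 33 with library size alone and 34 without replicate 3 of both the untreated and the TGF-β1 plus extract group. Without that pair TGF-β1 against untreated organoids gave 14 higher, against 11.5% of all genes higher and 11.9% lower. TGF-β1 plus extract against untreated organoids then gave 10 higher, against 5.85% higher and 7.89% lower. In that comparison Lig1 (0.37), Mcm3 (0.49) and Mcm6 (0.32) reversed their sign. For these changes the cause was not tested beyond the fewer libraries. Of 7095 alternative values of single members, 6795 kept their side of the threshold, 112 passed it only under the alternative, 185 passed it only in the reported fit and 3 reversed. Direction was compared only where the reported or the alternative fit called the member. The 6795 thus include uncalled values whose sign may differ.

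Same-numbered libraries did not deviate together in the other comparisons (r from -0.149 to 0.367 across genes). The replicate block left 42, 40 and 24 members called in liver, gave 12 (4 higher, 8 lower) for CCl4 and 7 (4 higher, 3 lower) for extract-treated CCl4 organoids against mineral oil organoids, and 0 in the other organoid comparisons. In healthy liver the depth limits members such as Orc1, Neil3, Cdc6 and Clspn, whose fold changes rest on few reads in some or all libraries. In CCl4 organoids Neil3 was the lowest member, at a mean of 0.144 CPM, so its differences between liver and these organoids are limited in the same way.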
